A study of Mus musculus with 4 samples.

Results

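Secreted Wnt antagonists are proteins that cells release to hold Wnt signalling down from outside, and 8 of their genes were read in epididymal fat of *Mir342* (-/-) and *Mir342* (+/+) mice on 2 diets: *Sfrp1*, *Sfrp2*, *Sfrp4*, *Sfrp5*, *Frzb*, *Dkk2*, *Dkk3* and *Wif1*. Each gene was represented by the probe with the highest mean over the 4 arrays among the probes that carry its symbol alone, which gave 8 of the 22180 named genes on the array. The 8 genes were selected on values of these same arrays, because *Sfrp5* showed opposite genotype differences on the 2 diets, so those differences are given below as a description. Total RNA of epididymal fat was hybridised to GeneChip Mouse Gene 2.0 ST arrays, which read a gene through short probes along its exons and give 1 value per transcript cluster.

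The 4 groups were *Mir342* (-/-) mice on high fat-high sucrose (HFHS) chow, *Mir342* (+/+) mice on HFHS chow, *Mir342* (-/-) mice on standard (STD) chow and *Mir342* (+/+) mice on STD chow. All were male littermates on a C57BL/6J background from crosses of heterozygous mice, kept on their diet from 5 weeks of age, with fat taken at 16 weeks. The *Mir342* (-/-) mice carried a targeted allele in which a cassette takes the place of the miRNA in every cell of the body, so the deletion is not restricted to fat. The methods name 3 individual animals per group, each group has 1 array, and the sources used here do not say whether it held RNA of 1 animal or a pool. Every difference below is therefore one between 2 arrays and has no replicate error. Values are on the log2 scale of the deposited table, where 1 unit is a 2-fold change, and differences are *Mir342* (-/-) minus *Mir342* (+/+) for genotype and HFHS minus STD for diet.

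Wnt proteins bind Frizzled receptors together with the co-receptors Lrp5 and Lrp6, and this stabilises beta-catenin, which then switches on target genes in the nucleus. The secreted frizzled-related proteins (the Sfrp family and Frzb) and Wif1 bind the Wnt proteins themselves, whereas Dickkopf proteins such as Dkk2 act on the Lrp co-receptors. Canonical Wnt signalling is known to hold preadipocytes back from becoming fat cells, and *Sfrp5* is a gene of mouse adipocytes known to go up as fat mass expands.

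The miRNA removed in these mice and the promoters of *Sfrp5* and *Sfrp2* are shown so that the allele and 2 of the members that read higher on HFHS chow in both genotypes can be seen with their sequence. The *Mir342* hairpin lies in an intron of *Evl* and gives 2 mature miRNAs, at chr12:108658680-108658702 and chr12:108658638-108658659 on the plus strand of GRCm38.p6. Capitals mark the seed, bases 2 to 8, which pairs with target mRNAs.
miR-342-3p: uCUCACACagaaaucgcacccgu
miR-342-5p: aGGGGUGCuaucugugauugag
The promoter of *Sfrp5* at chr19:42202253-42202502 (minus strand) and that of *Sfrp2* at chr3:83766071-83766320 (plus strand) are the 250 bases before the RefSeq gene start on GRCm38.p6. Capitals mark the GC box GGGCGG and the E-box CANNTG, searched on both strands.
Sfrp5: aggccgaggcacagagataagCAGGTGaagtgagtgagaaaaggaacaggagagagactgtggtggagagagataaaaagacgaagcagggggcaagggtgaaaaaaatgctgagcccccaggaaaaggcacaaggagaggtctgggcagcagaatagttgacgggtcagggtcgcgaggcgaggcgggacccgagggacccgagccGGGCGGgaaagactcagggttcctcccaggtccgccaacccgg
Sfrp2: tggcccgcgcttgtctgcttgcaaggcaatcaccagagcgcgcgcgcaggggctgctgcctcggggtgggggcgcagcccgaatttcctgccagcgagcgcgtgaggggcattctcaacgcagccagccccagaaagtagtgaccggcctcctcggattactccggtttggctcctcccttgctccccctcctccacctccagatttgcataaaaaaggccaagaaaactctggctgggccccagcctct
The *Sfrp5* window held 1 GC box and 1 E-box, against none of either in the *Sfrp2* window, and 59.6% of its bases were G or C, against 63.6% for *Sfrp2* and a median of 52.4% over the 32851 promoters of the table. Of all promoters in the table, 32.7% held a GC box and 66.2% an E-box in a window of this length. The TCF/LEF core CTTTG, found in 48.6% of promoters, and the nuclear receptor half-site AGGTCA, found in 14% of promoters, had no match in either window. Promoters of 5 of the 8 members were in the RefSeq table, and the other three (*Frzb*, *Dkk2* and *Wif1*) each held at least 1 GC box and 1 CTTTG. Such matches describe letters in a window and not sites bound by a factor.

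Receptors of smell and taste, which fat does not need, served to mark where signal fades into background: 95% of their 1443 probes had a mean of 5.06 or less. This value was taken as the floor, and 12963 of the 22180 genes averaged more. Of the 8 members, 6 passed it: *Sfrp1*, *Sfrp2*, *Sfrp4*, *Sfrp5*, *Dkk3* and *Wif1*. *Frzb* (also named Sfrp3) read 3.73 in HFHS *Mir342* (-/-), 4.07 in HFHS *Mir342* (+/+), 3.57 in STD *Mir342* (-/-) and 3.66 in STD *Mir342* (+/+), under the floor on all arrays. *Dkk2* read 4.96, 4.77, 5.28 and 5.06 in the same order, with the STD *Mir342* (-/-) array alone above the floor. Neither gene could be compared between groups, and no fold change is given for them.

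The tissue and the labels were checked on the same arrays. All 11 adipocyte markers matched on the array lay above the floor, with means over the list of 10.87 in HFHS *Mir342* (-/-), 10.85 in HFHS *Mir342* (+/+), 10.77 in STD *Mir342* (-/-) and 10.44 in STD *Mir342* (+/+). The *Mir342* probe read 4.46 in HFHS *Mir342* (-/-), against 5.52 in HFHS *Mir342* (+/+), and 4.62 in STD *Mir342* (-/-), against 5.43 in STD *Mir342* (+/+), lower in both arrays of the deletion and under the floor there. Its host gene *Evl* read 7.46 against 7.65 on HFHS chow and 6.95 against 7.55 on STD chow. The array of STD *Mir342* (+/+) stood apart from the rest in several markers of duct epithelium. The 8 of 12 above the floor averaged 5.58 in HFHS *Mir342* (-/-), 5.55 in HFHS *Mir342* (+/+), 5.59 in STD *Mir342* (-/-) and 7.33 in STD *Mir342* (+/+). *Plet1* at 9.32 and *Mmp7* at 8.71 led in the last. *Prom1* (7.36) and *Cuzd1* (8.08) passed the floor on average through that array alone, and so raise its mean. *Krt7* was lowest there (5.48), and *Cldn3* (5.85) lay within the range of the other arrays. The array is called duct-rich below for the markers that were high. The genotype difference on STD chow and the diet difference in *Mir342* (+/+) mice use that array, whereas the genotype difference on HFHS chow and the diet difference in *Mir342* (-/-) mice do not. The part of this tissue in the results below was not tested.

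*Sfrp5* had the widest span of the members. It read 8.56 in HFHS *Mir342* (-/-), 9.52 in HFHS *Mir342* (+/+), 6.65 in STD *Mir342* (-/-) and 5.50 in STD *Mir342* (+/+). Both arrays of HFHS chow lay above both of STD chow, and the 2 arrays of *Mir342* (-/-) mice lay between those of *Mir342* (+/+) mice. The steps from the highest array to the lowest were 0.95, 1.91 and 1.15, so no 2 groups lay close together, though with 1 array per group the spread against which to read a step was not measured. The span of 4.01 ranked 3 among the 12963 genes.

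The genotype difference of *Sfrp5* was -0.95 on HFHS chow (1.93-fold lower in *Mir342* (-/-)) and 1.15 on STD chow (2.22-fold higher in *Mir342* (-/-)). Of all genes compared, 0.262% were as far from 0 in either direction on HFHS chow and 0.648% on STD chow. The difference on HFHS chow minus that on STD chow was -2.10, a size that placed *Sfrp5* at rank 20 of 12963. Only 9 genes, 0.0694% of those compared, were at least 1.5-fold apart on both diets in opposite directions, and 6 of them (0.0463%) were, like *Sfrp5*, higher in *Mir342* (-/-) on STD chow and lower on HFHS chow. The named ones besides *Sfrp5* were *Cilp*, *Duoxa1*, *Gstm4* and *Slc5a7*, chosen for naming after their values were seen. *Atp1b1*, *Irf4* and *Rgs2* ran the other way. With values under the floor set to it, 7 genes were left, 4 of them running as *Sfrp5* did, since *Slc5a7* lay under the floor in both STD arrays and *Duoxa1* came to 0.48 on STD chow. These are the values by which the gene set was picked, and they carry no test.

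*Sfrp5* was higher on HFHS chow in both genotypes. The diet difference was 1.91 (3.77-fold) in *Mir342* (-/-) mice and 4.01 (16.2-fold) in *Mir342* (+/+) mice, and 0.0771% and 0.0154% of genes were as far from 0 in the 2 comparisons. The comparison in *Mir342* (+/+) mice uses the duct-rich STD array and the one in *Mir342* (-/-) mice does not. The part of that tissue in either value was not tested. In bulk fat, more cells that make a transcript and more transcript per cell cannot be told apart.

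**Figure D1:**
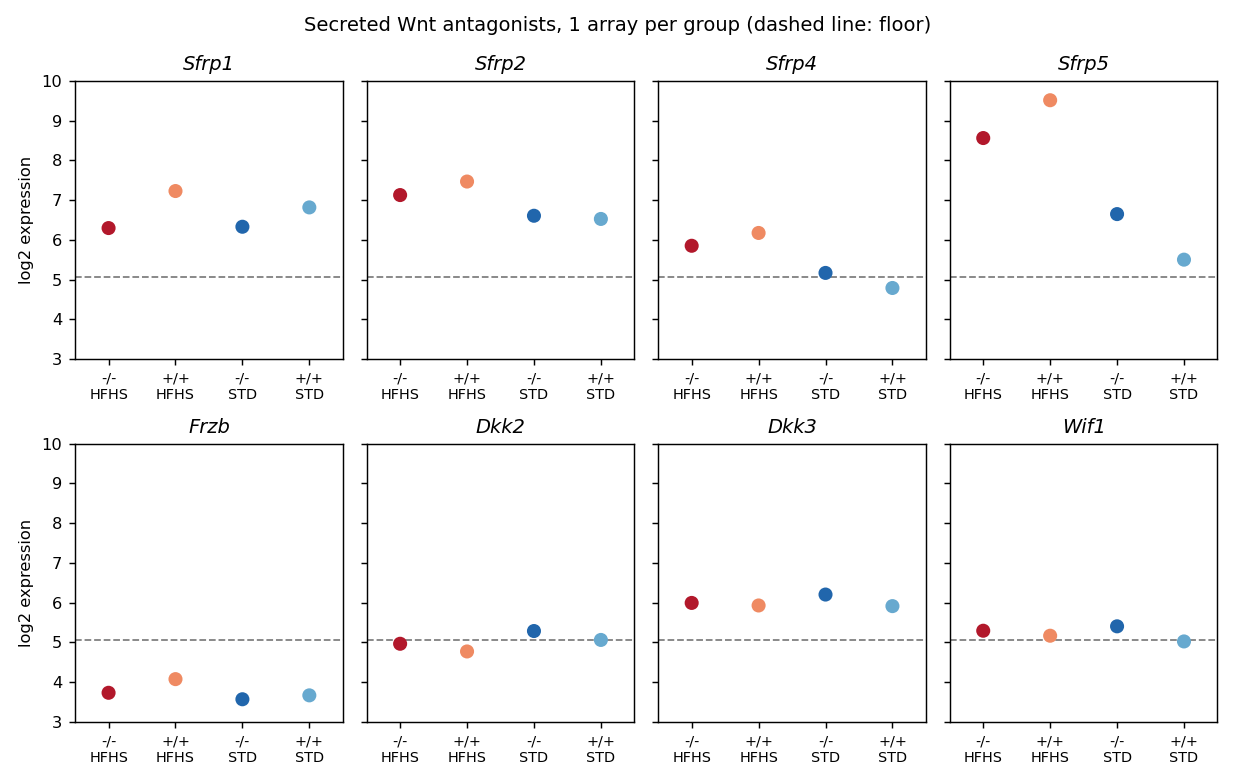
log2 expression (y axis) of the 8 secreted Wnt antagonists in each of the 4 arrays (x axis, 1 point per group), with the floor of 5.06 as a dashed line. *Sfrp5* runs over 4.01 units with both HFHS arrays on top, *Sfrp1* is lower in *Mir342* (-/-) on both diets, and *Frzb* stays under the floor.

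*Sfrp1*, which binds Wnt proteins through a domain like that of the Frizzled receptors, was the member that read lower without *Mir342* on both diets. It read 6.30 in HFHS *Mir342* (-/-), 7.23 in HFHS *Mir342* (+/+), 6.33 in STD *Mir342* (-/-) and 6.82 in STD *Mir342* (+/+). The 2 arrays of *Mir342* (-/-) mice were 0.03 apart and lay below both arrays of *Mir342* (+/+) mice. The genotype difference was -0.93 on HFHS chow (1.91-fold lower) and -0.49 on STD chow (1.40-fold lower). On HFHS chow, 0.301% of genes were as far from 0, and on STD chow 9.80%. The diet difference was -0.03 in *Mir342* (-/-) mice and 0.41 in *Mir342* (+/+) mice, and the first was 0.01, of the other sign, when each array was centred on its median.

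*Sfrp2*, a product of fibroblasts in many tissues, read 7.13 in HFHS *Mir342* (-/-), 7.47 in HFHS *Mir342* (+/+), 6.61 in STD *Mir342* (-/-) and 6.53 in STD *Mir342* (+/+). As with *Sfrp5*, both HFHS arrays lay above both STD arrays. The diet difference was 0.52 (1.43-fold) in *Mir342* (-/-) mice and 0.94 (1.92-fold) in *Mir342* (+/+) mice, whereas the genotype difference was -0.34 on HFHS chow and 0.08 on STD chow. A second *Sfrp2* probe lay near the floor, at 5.05, 5.11, 4.92 and 4.78 in the same order of groups, and its diet differences of 0.13 in *Mir342* (-/-) and 0.33 in *Mir342* (+/+) had the same sign as those of the first.

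*Sfrp4* read 5.85 in HFHS *Mir342* (-/-), 6.17 in HFHS *Mir342* (+/+), 5.17 in STD *Mir342* (-/-) and 4.79 in STD *Mir342* (+/+), the last under the floor. Its order of groups was that of *Sfrp5* and *Sfrp2*. The diet difference was 0.68 (1.61-fold) in *Mir342* (-/-) mice and 1.39 as read in *Mir342* (+/+) mice. With the STD value set to the floor, the second was at least 1.11, or at least 2.16-fold higher on HFHS chow. The genotype difference was -0.32 on HFHS chow and 0.38 as read on STD chow, or at least 0.11 with the floor.

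*Dkk3*, a Dickkopf protein whose action on Wnt signalling differs from that of the other Dickkopf proteins, varied little. It read 5.99 in HFHS *Mir342* (-/-), 5.93 in HFHS *Mir342* (+/+), 6.20 in STD *Mir342* (-/-) and 5.91 in STD *Mir342* (+/+). The STD *Mir342* (-/-) array was the highest, 0.21 above the next, and the other three lay close together. The genotype difference was 0.06 on HFHS chow and 0.29 on STD chow, where 29.7% of genes were as far from 0.

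*Wif1*, which binds Wnt proteins through a WIF domain, lay just above the floor. It read 5.29 in HFHS *Mir342* (-/-), 5.17 in HFHS *Mir342* (+/+), 5.40 in STD *Mir342* (-/-) and 5.02 in STD *Mir342* (+/+), the last under the floor. Like *Dkk3*, it was highest in STD *Mir342* (-/-). The genotype difference was 0.13 on HFHS chow and 0.38 as read on STD chow, or at least 0.34 with the floor, and the diet difference was -0.11 in *Mir342* (-/-) mice and 0.14 in *Mir342* (+/+) mice.

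On HFHS chow, the 6 members above the floor had a median genotype difference of -0.33, against -0.03 over all 12963 genes, with 2 higher and 4 lower in *Mir342* (-/-). A gene was called here where the 2 arrays were at least 1.5-fold apart. *Sfrp1* and *Sfrp5* were called lower and no member higher, beside 0.849% of all genes lower and 0.447% higher. *Sfrp5* was picked on this comparison, and its call is a description. Neither was 2-fold apart.

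On STD chow, the median over the 6 members was 0.34, against -0.06 over all genes, with 5 higher and 1 lower. It was 0.20 with values under the floor set to it, and 0.08 with the floor raised by 1, which leaves 3 members. *Sfrp5* was called higher and no member lower, beside 1.79% of all genes higher and 3.95% lower. The split of all calls on this diet moved with the scaling: 232 genes were higher and 512 lower in the values as deposited, 294 and 393 after quantile normalization, and 172 and 645 after centring each array on its median. *Sfrp5* was at 1.22 and 1.10 under these scalings.

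In *Mir342* (-/-) mice, the diet difference of the 6 members had a median of 0.24, against 0.05 over all genes, with 3 higher and 3 lower on HFHS chow. Of all 12963 genes, 7514 were higher. *Sfrp4* and *Sfrp5* were called higher and none lower, beside 3.12% of all genes higher and 1.31% lower. The median rested on *Sfrp5*, since it was -0.03 over the other 5 members. In *Mir342* (+/+) mice the median was 0.68, against 0.02 over all genes, and all 6 members were higher on HFHS chow, beside 6824 of 12963 genes. *Dkk3* was higher by only 0.02, and *Wif1* by 0.14 with its STD value under the floor. Without *Sfrp5* the median was 0.41. *Sfrp2*, *Sfrp4* and *Sfrp5* were called higher and none lower, beside 6.53% of all genes higher and 4.67% lower, and *Sfrp5* and, on its value as read, *Sfrp4* were over 2-fold apart.

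The genotype difference on HFHS chow was below that on STD chow for all 6 members above the floor, which is the same as a smaller diet difference in *Mir342* (-/-) than in *Mir342* (+/+). The median of this difference of differences was -0.43 over the members and 0.03 over all genes, of which 5902 were below 0. As read, *Sfrp4* (-0.70) and *Sfrp5* (-2.10) were at least 1.5-fold below 0 and no member as far above it, beside 3.59% of all genes below and 4.03% above. With the low STD value of *Sfrp4* set to the floor, its difference was -0.43, short of 1.5-fold, and *Sfrp5* alone passed. All 4 arrays enter this value, the duct-rich one included, and *Sfrp5* was picked on it.

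**Figure D2:**
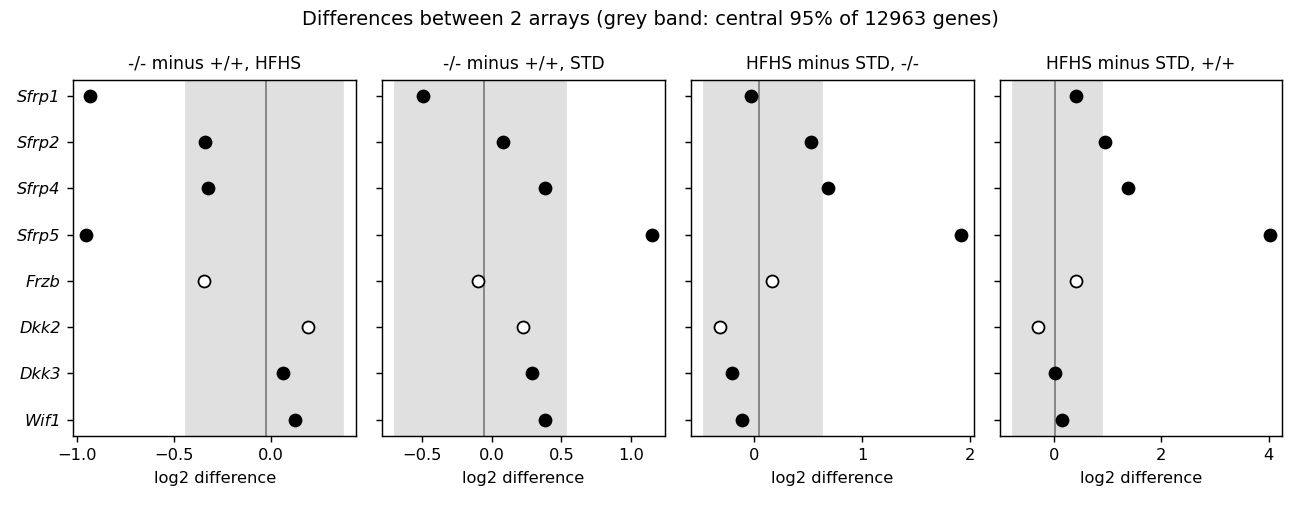
Differences between 2 arrays (x axis, log2) for each member (y axis), for genotype on HFHS and on STD chow and for diet in *Mir342* (-/-) and *Mir342* (+/+) mice. Filled points are members above the floor, open points members under it, and the grey band spans the central 95% of the 12963 genes around their median. *Sfrp5* lies outside the band in all 4 panels, *Sfrp1* for genotype on HFHS chow, *Sfrp4* for diet in both genotypes and *Sfrp2* for diet in *Mir342* (+/+) mice.

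The additive fit of genotype and diet over the 4 arrays by limma was the one test the design allowed. It had 1 residual degree of freedom and Benjamini-Hochberg adjustment over 12963 genes. That degree of freedom is the difference of the genotype differences, on which *Sfrp5* was picked. The SE and p below thus rest on it and on limma's prior, and not on replicates. For the members, chosen on values of these arrays, they are a description. For diet it called 167 genes higher on HFHS chow (1.29%) and 70 lower (0.54%). *Sfrp5* was the member called, with a diet term of 2.96 (SE 0.43, limma adjusted p = 0.0367), higher in both genotypes. The call was lost after quantile normalization (adjusted p = 0.112), with a trended and robust prior (0.214) and with no floor (0.162), and it was kept under the other alternatives (0.0118 to 0.0329). *Sfrp4* (1.03, SE 0.18, limma adjusted p = 0.0532) and *Sfrp2* (0.73, SE 0.15, limma adjusted p = 0.0663), both higher on HFHS chow in both genotypes, missed the threshold of 0.05. *Sfrp4* passed it after centring (0.0424) and with the mean of the probes of a gene (0.0469), and *Sfrp2* with the floor raised by 1 (0.0300). Some settings moved both further from it. *Sfrp4* had a limma adjusted p of 0.112 after quantile normalization and 0.184 with no floor. *Sfrp2* had 0.140 and 0.196 there, and 0.123 with the mean of its probes, where its term was 0.48. The diet terms of *Sfrp1* (0.19, SE 0.15), *Dkk3* (-0.10, SE 0.13) and *Wif1* (0.02, SE 0.13) had limma adjusted p of 0.546, 0.738 and 0.963.

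For genotype, limma called none of the 12963 genes (0%) after adjustment, 1081 had an unadjusted p under 0.05, and the fit with a trended and robust prior also called none. *Sfrp1* was the member with an unadjusted p under 0.05, with a genotype term of -0.71 (SE 0.15, limma adjusted p = 0.576), lower on both diets. *Sfrp5* had a genotype term of 0.10 (SE 0.43, limma adjusted p = 0.958), since its differences on the 2 diets run in opposite directions and an additive fit takes them as error. The terms of *Dkk3* (0.18, SE 0.13) and *Wif1* (0.25, SE 0.13) were positive on both diets, with limma adjusted p of 0.694 and 0.609.

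The genes nearest to each member were found by the Euclidean distance between their profiles over the 4 arrays, each centred on its own mean, among 11817 named genes above the floor. Nearest to *Sfrp5*, whose own profile has a length of 3.15, were *Slc5a7* (distance 0.80), *Prr32* (0.82), *Lctl* (0.84), *Tmem45b* (1.08), *Cdsn* (1.12), *Pnpla3* (1.16), *Fasn* (1.20) and *Lipf* (1.25). *Fasn* encodes fatty acid synthase and *Pnpla3* a lipid-droplet protein induced by feeding. All 8 were higher on HFHS chow in both genotypes, a rise largely built in by picking them for a profile near that of *Sfrp5*. Of the 8, 7 were lower in *Mir342* (-/-) on HFHS chow, which picking for that profile also favours, beside 7314 of all 12963 genes. *Cdsn* was higher there (0.46). *Fasn* read 10.64 in HFHS *Mir342* (-/-), 10.87 in HFHS *Mir342* (+/+), 9.51 in STD *Mir342* (-/-) and 8.24 in STD *Mir342* (+/+). Its limma adjusted p for diet was 0.0480. The HFHS genotype difference was small in *Fasn* (-0.23), *Lctl* (-0.08) and *Pnpla3* (-0.01), and over 1 unit in *Slc5a7* (-1.84) and *Lipf* (-2.22). *Slc5a7*, *Lctl* and *Lipf* lay under the floor in both STD arrays and passed it on average through their HFHS arrays. *Prr32* lay under it in STD *Mir342* (+/+). With 4 arrays a near profile describes these arrays and no more, and the diet p of *Fasn* is no separate support.

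The other members had closer neighbours. *Ctsk*, a collagen-degrading protease, was nearest to *Sfrp1* at a distance of 0.13. It read 5.79, 6.68, 5.67 and 6.16 in HFHS *Mir342* (-/-), HFHS *Mir342* (+/+), STD *Mir342* (-/-) and STD *Mir342* (+/+). Next to *Sfrp1* came *Egr1* (0.19), *Oas1b* (0.22), the matrix metalloproteinase *Mmp2* (0.23) and *Spry4* (0.23). *Oas1b* lay under the floor in both arrays of *Mir342* (-/-) mice. *Zfp385a* at 0.01 and *Ly86* and *Runx1* at up to 0.08 were near *Sfrp2*, and *Slc25a35* and *Islr* at 0.10 were near *Sfrp4*. The 5 nearest to *Dkk3* (*Foxo1* first) and the 5 nearest to *Wif1* (*Nags* first) lay within 0.03 and 0.04, as genes of small range do.

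**Figure D3:**
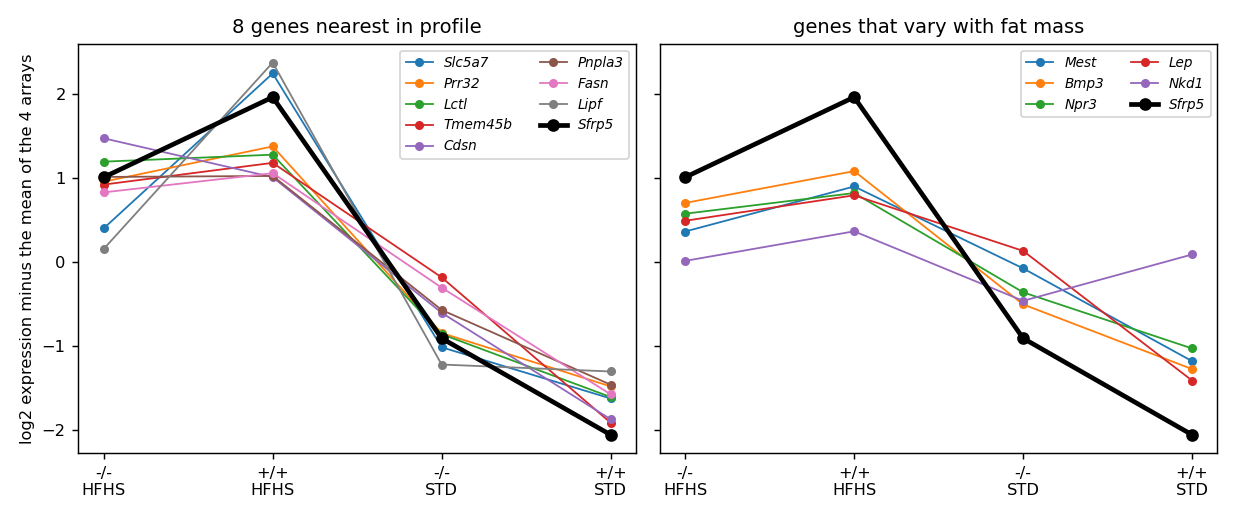
Profiles over the 4 arrays (x axis) of *Sfrp5* (black) with the 8 genes nearest to it (left) and with 5 genes known to vary with fat mass (right), as log2 expression minus the mean of the 4 arrays of each gene (y axis). All genes on the left, picked for a profile near that of *Sfrp5*, are higher in both HFHS arrays. *Sfrp5* is 0.95 lower in HFHS *Mir342* (-/-) than in HFHS *Mir342* (+/+).

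*Mest*, *Bmp3*, *Npr3*, *Lep* and *Nkd1* are known, like *Sfrp5*, to vary with fat mass in C57BL/6J mice. This list, like the others below, was chosen with earlier results of these data known, so its counts and calls are a description. On HFHS chow all 5 read lower in *Mir342* (-/-), with a median of -0.35 and none 1.5-fold apart. On STD chow, 4 of the 5 were at least 1.5-fold higher in *Mir342* (-/-), with a median of 0.77. Beside them, 1.79% of all genes were called higher and 3.95% lower, in a comparison that uses the duct-rich STD *Mir342* (+/+) array. What these values owe to fat mass in these mice was not tested. *Lep*, which encodes leptin, read 11.18 in HFHS *Mir342* (-/-), 11.48 in HFHS *Mir342* (+/+), 10.82 in STD *Mir342* (-/-) and 9.28 in STD *Mir342* (+/+). *Mest*, an imprinted gene of growing fat, read 10.38, 10.91, 9.94 and 8.84 in that order. The order of groups was that of *Sfrp5* in *Lep*, *Mest*, *Bmp3* and *Npr3*, and *Nkd1* went its own way on STD chow (-0.55). For diet, limma called *Bmp3* (1.78, SE 0.26, adjusted p = 0.0363) and *Npr3* (1.39, SE 0.22, adjusted p = 0.0411), both higher on HFHS chow in both genotypes.

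The rest of the Wnt pathway was read from lists of its parts, and limma called none of their members for diet or genotype outside the list just named. Of 19 Wnt ligands, 10 lay above the floor, with median genotype differences of 0.11 on HFHS chow and 0.11 on STD chow. *Wnt2b* was the ligand past 1.5-fold, at 6.75 in HFHS *Mir342* (-/-) against 6.34 in HFHS *Mir342* (+/+), and at 7.10 in STD *Mir342* (-/-) against 6.43 in STD *Mir342* (+/+), differences of 0.41 and 0.67. Of the 15 receptors and co-receptors, 13 lay above the floor, 11 of them lower in *Mir342* (-/-) on HFHS chow by up to 0.29 and 5 of them on STD chow. *Fzd6* read 7.03 in HFHS *Mir342* (-/-), 7.32 in HFHS *Mir342* (+/+), 6.81 in STD *Mir342* (-/-) and 7.86 in STD *Mir342* (+/+). Its genotype difference was -1.05 on STD chow, where the +/+ array is the duct-rich one. *Fzd4*, a Frizzled known from blood vessels, was higher on HFHS chow by 0.17 in *Mir342* (-/-) mice and by 0.70 in *Mir342* (+/+) mice. The 4 R-spondins and R-spondin receptors above the floor differed by no more than 0.29 (*Lgr6*, STD chow). *Porcn*, which attaches the lipid that Wnt proteins need for secretion, was 0.62 lower on HFHS chow in *Mir342* (-/-) mice and 0.05 lower in *Mir342* (+/+) mice.

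Among 13 other extracellular inhibitors, 9 lay above the floor, with a median genotype difference of -0.01 on HFHS chow and 0.17 on STD chow. *Apcdd1*, a membrane protein that blocks Wnt signalling, read 9.71 in HFHS *Mir342* (-/-), 9.74 in HFHS *Mir342* (+/+), 9.23 in STD *Mir342* (-/-) and 8.50 in STD *Mir342* (+/+). Its diet difference was 0.48 in *Mir342* (-/-) mice and 1.23 in *Mir342* (+/+) mice (limma term 0.86, SE 0.19, adjusted p = 0.0830). *Apcdd1* shared with *Sfrp5* the low STD *Mir342* (+/+) array, but not the gap between genotypes on HFHS chow. *Dkk4* was 0.72 higher in *Mir342* (-/-) on STD chow as read and at least 0.35 higher with the floor.

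Inside the cell, 16 of the 17 pathway genes were matched and above the floor, and 14 of them read lower in *Mir342* (-/-) on HFHS chow, with a median of -0.14 and none 1.5-fold apart. *Bcl9l* and *Pygo1*, partners of beta-catenin in the nucleus, were 0.17 and 0.02 higher on HFHS chow in *Mir342* (-/-) mice, against 0.66 and 0.76 in *Mir342* (+/+) mice. Of the Wnt target genes, 8 lay above the floor, and 7 of the 8 were lower in *Mir342* (-/-) on each diet, with medians of -0.13 on HFHS chow and -0.23 on STD chow. Over all genes, 7314 of 12963 were lower on HFHS chow and 7542 on STD chow. *Axin2*, the target most used as a readout of canonical Wnt signalling, read 6.35 in HFHS *Mir342* (-/-), 6.43 in HFHS *Mir342* (+/+), 6.30 in STD *Mir342* (-/-) and 6.47 in STD *Mir342* (+/+), a genotype difference of -0.09 on HFHS chow and -0.17 on STD chow. *Ccn5*, a matricellular protein, read 7.44, 8.54, 7.12 and 7.12 in that order, with the HFHS *Mir342* (+/+) array alone high, and *Ccnd1*, the cell-cycle gene for cyclin D1, was 0.18 lower in *Mir342* (-/-) on HFHS chow and 0.83 lower on STD chow. *Myc* and *Rnf43* were each 0.63 lower on HFHS chow in *Mir342* (+/+) mice, and 0.23 and 0.20 lower in *Mir342* (-/-) mice. The *Mir342* (+/+) values and the *Ccnd1* difference on STD chow use the duct-rich array.

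**Figure D4:**
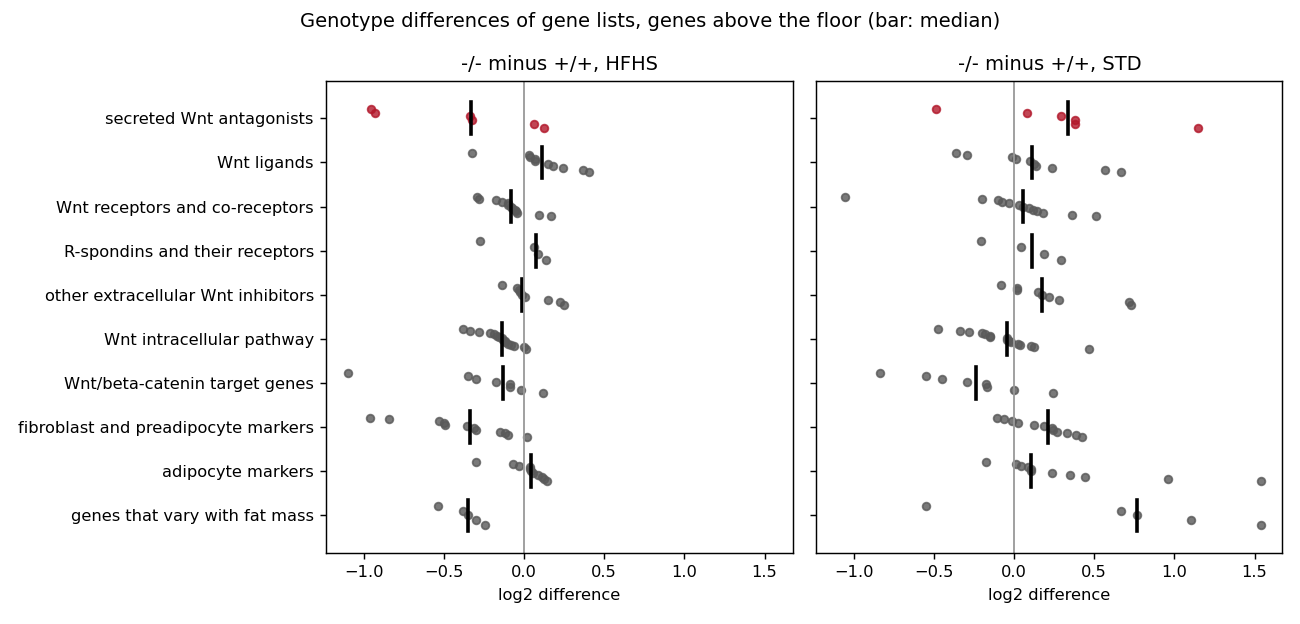
Genotype differences (x axis, log2, *Mir342* (-/-) minus *Mir342* (+/+)) of the genes above the floor in each list (y axis), on HFHS chow (left) and STD chow (right), 1 point per gene, with a bar at the median. The secreted antagonists have a median of -0.33 on HFHS chow and 0.34 on STD chow. Beside them are -0.33 and 0.21 for fibroblast and preadipocyte markers, and 0.04 and 0.11 for adipocyte markers.

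Markers of the cell types of fat were set beside these values. Fibroblast and preadipocyte markers, 12 of 14 matched and all 12 above the floor, had mean levels of 8.78 in HFHS *Mir342* (-/-), 9.17 in HFHS *Mir342* (+/+), 8.62 in STD *Mir342* (-/-) and 8.45 in STD *Mir342* (+/+). Of the 12, 11 were lower in *Mir342* (-/-) on HFHS chow, with a median of -0.33 and *Lum* (-0.96) and *Col14a1* (-0.84) the furthest, and 9 were higher on STD chow, with a median of 0.21. All 12 had a lower genotype difference on HFHS chow than on STD chow, with a median of -0.48, as all 6 antagonists and 5902 of all 12963 genes did. So did 9 of 11 adipocyte markers, 9 of 12 mesothelial markers and 10 of 13 Wnt receptors. It was 4 of 10 macrophage, 2 of 8 smooth muscle and 0 of 10 endothelial markers. The duct-rich array enters these values. On HFHS chow against STD chow the fibroblast and preadipocyte markers were higher by a median of 0.12 in *Mir342* (-/-) mice, 2 of them at least 1.5-fold. In *Mir342* (+/+) mice the median was 0.81, with 7 of them at least 1.5-fold higher. Of all genes, 3.12% and 6.53% were at least 1.5-fold higher in these comparisons. *Pi16*, a marker of early fibroblast progenitors, was called for diet by limma (1.15, SE 0.16, adjusted p = 0.0363), higher on HFHS chow in both genotypes. *Sfrp1* was lower in *Mir342* (-/-) on STD chow too, where 3 of the 12 markers were. Their part in the antagonists' differences was not tested.

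Adipocyte markers had median genotype differences of 0.04 on HFHS chow and 0.11 on STD chow, and a median diet difference of 0.01 in *Mir342* (-/-) and 0.22 in *Mir342* (+/+). Within that list *Lep* was 1.54 and *Plin1*, which coats lipid droplets, 0.96 higher in *Mir342* (-/-) on STD chow. Their diet differences in *Mir342* (+/+) mice were 2.20 and 1.06. Their part in the values of *Sfrp5* was not tested. Mesothelial markers, 12 of 12 above the floor, had medians of 0.14 on HFHS chow and 0.52 on STD chow. Endothelial markers were lower in *Mir342* (-/-) in 10 of 10 genes on each diet, with medians of -0.16 and -0.56, and smooth muscle markers were lower in 7 of 8, with medians of -0.27 and -0.49. Macrophage markers were higher on HFHS chow by a median of 0.47 in *Mir342* (-/-) mice and 0.54 in *Mir342* (+/+) mice. The endothelial gene *Cldn5* (1.02, SE 0.12, limma adjusted p = 0.0303) and the macrophage gene *Adgre1* (0.94, SE 0.12, limma adjusted p = 0.0321) were called for diet, both higher on HFHS chow in both genotypes. Of 8 skeletal muscle markers, 4 lay above the floor, with medians of 0.20 on HFHS chow and 0.33 on STD chow for genotype.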

How the data were processed

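The authors deposited log2 expression for each transcript cluster of 4 arrays, analysed by a service laboratory. The sources used here do not say how these were summarized and normalized, and they were taken unchanged. With 1 array for each group, the arrays' number limits precision. Of 41345 probes, 23521 carry 1 gene symbol in GEO's platform annotation, 1820 several and 16004 none, and the first were used, with the probe of the highest mean kept for each gene. The 8 members and all gene lists were chosen with earlier results of these data known. Differences between 2 arrays carry no p. limma 3.58.1 in R 4.3.3 fitted genotype and diet additively, with 1 residual and 5.45 prior degrees of freedom. It was also run on simulated data. Those had equal noise in every gene and no genotype-by-diet difference, unlike these arrays, so the run does not bear on the *Sfrp5* call.

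Named are all members, genes of the Wnt and fat-mass lists at least 1.5-fold apart (up to 4 per list and comparison) or called by limma, the 8 genes nearest to *Sfrp5* and the 5 nearest to each other member in part, *Mir342*, *Evl* and some markers that move beside a result, with *Axin2* named besides. Alternatives were quantile normalization, centring, the mean of a gene's probes, no floor, a floor raised by 1, a 2-fold threshold and a trended, robust prior. Raising lower values to the floor, leaving out *Sfrp5*, other floors for its diet term and all alternatives for the difference of genotype differences were added after seeing the data. Other steps ran in Python 3.11.15 with pandas 2.3.3 and numpy 2.4.6, and figures in matplotlib 3.10.9. Sequences are from RefSeq (GRCm38.p6).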

Additional observations from a re-analysis of the deposited data

Results flagged for a closer look

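The genotype difference of *Sfrp5* on HFHS chow minus that on STD chow was -2.10, with values of 8.56 in HFHS *Mir342* (-/-) and 9.52 in HFHS *Mir342* (+/+), and of 6.65 in STD *Mir342* (-/-) and 5.50 in STD *Mir342* (+/+). It stood out because the 2 diets ran in opposite directions. The difference was not tested, since each group has 1 array, and the gene was picked for it.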

How the results depend on the processing

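No paired analysis was possible because each group has 1 array and the labels give no replicate numbers, and no array could be left out of the additive fit, which has 1 residual degree of freedom. Over 18 results and 103 alternatives, 88 were kept. A difference or median was kept where it moved by less than the central spread of all genes. A count was kept within 1.5-fold, and the *Sfrp5* diet term by its sign and its side of the threshold. The *Sfrp5* differences were kept under every scaling tried. *Sfrp5* has 1 probe, so the mean of a gene's probes could not change its differences. The median diet difference of the members in *Mir342* (-/-) mice was -0.033 without *Sfrp5*, chosen after seeing the data, 0.52 with the floor raised by 1, 0.065 with no floor and 0.15 with the mean of a gene's probes, against 0.24. In *Mir342* (+/+) mice it was 0.41 without *Sfrp5* and 0.41 with no floor, against 0.68, and the median genotype difference on STD chow was 0.080 with the floor raised by 1 and 0.20 with values set to the floor, against 0.34. The median genotype difference on HFHS chow was -0.93 with the floor raised by 1, which leaves 3 members, against -0.33. At 2-fold, 0 members were apart for genotype on HFHS chow and 1 for diet in *Mir342* (-/-) mice, against 2 each at 1.5-fold, and the second count was also 1 with the floor raised by 1. For the difference of the genotype differences, 1 member was apart at 2-fold, 1 with the floor raised by 1 and 1 with values set to the floor, against 2. Genes called for diet by limma numbered 237, against 0 after quantile normalization, 0 with no floor and 564 with the floor raised by 1. The *Sfrp5* diet term lost its call after quantile normalization (2.93, limma adjusted p = 0.112), with a trended and robust prior (2.96, 0.214) and with no floor (2.96, 0.162). The causes were not tested. Values near the floor, those of *Wif1*, *Dkk2* and STD *Sfrp4*, limit what their differences can show.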
